A study of Mus musculus with 16 samples.

Results

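Transcripts of 8 transcription factors that set pancreatic and foregut identity were followed in KPC1199 cells with and without a guide against Sin3B. The factors were Hnf4a, Foxa1, Foxa2, Gata4, Gata6, Pdx1, Sox9 and Onecut2, found by gene symbol in the count tables of both experiments. They are 8 of the 55405 genes that the tables share. KPC1199 is an established mouse pancreatic ductal adenocarcinoma (PDAC) line from tumors of the KPC model, in which Cre driven by the Pdx promoter turns on the tumor alleles of the model, mutant Trp53 among them, so all groups carry those alleles. Bulk RNA-seq was taken from 16 libraries. The untreated experiment has 2 libraries of cells with the control guide sgCtrL and 2 of cells with the guide Sin3Bsg1. The IFNγ experiment has 3 libraries of each of these lines without IFNγ and 3 of each after IFNγ at 10 ng mL-1 for 24 h. The edited lines were made with a lentiviral Cas9 vector that both groups received, and the Sin3Bsg1 group is the product of 1 guide, so an effect of that line and an effect of Sin3B loss cannot be told apart.

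Endoderm is patterned by a layered set of transcription factors. Foxa1 and Foxa2 open chromatin in foregut endoderm, Gata4, Gata6 and Pdx1 act in the pancreatic bud, Sox9 keeps progenitors and later ducts, and Hnf4a and the Onecut factors act in epithelia of liver, gut and pancreas. In PDAC several of them mark the well-differentiated classical state, and their loss is known from the basal-like state. SIN3B is a scaffold without known DNA-binding activity that brings histone deacetylases to chromatin.

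The guide sequence listed in the study's supplement matched 1 site in the mouse genome GRCm39, at chr8:73449982-73450001 on the plus strand, inside coding sequence of exon 1 of Sin3b (chr8:73449880-73484833). It is shown because every comparison by guide rests on it, with the adjoining PAM read from GRCm39 in capitals:
Sin3Bsg1: tggctcccgctggggtcgttCGG
The targeted gene was lower in each library that carries this guide. Sin3b stood at 36.5 and 34.1 CPM (counts scaled to the same library size with TMM factors) in untreated Sin3Bsg1 cells and at 88.6 and 83.4 in untreated sgCtrL cells. In the IFNγ experiment it ran from 33.6 to 39.4 CPM in Sin3Bsg1 libraries and from 80.4 to 95.6 CPM in sgCtrL libraries, and the groups did not overlap. The log2 change of Sin3b was -1.28 untreated, -1.24 without IFNγ and -1.22 with IFNγ, each past an adjusted p of 0.05 in edgeR. Its paralog Sin3a, which builds the related SIN3A complex, changed by -0.061, -0.14 and -0.072 on the log2 scale and passed in none of the 3.

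Promoter windows of the RefSeq annotation (build GRCm38.p6) exist for 4 of the 8 genes, Hnf4a, Foxa2, Foxa1 and Pdx1. Printed here are the 250 bases before a start for Hnf4a (both of its starts) and Foxa2 (the most upstream of its 3), which were higher in Sin3Bsg1 cells in every comparison, and for Pdx1, which was not. Capitals mark a match on either strand to 1 of 5 motifs, which are TGTTTAC for FOXA factors, AGATAA for factors of the GATA family, CAAAGTCCA for HNF4, CACGTG for the E-box and ATTGAT for ONECUT factors. The windows lie at chr2:163506607-163506856 and chr2:163546905-163547154 (plus strand), chr2:148046970-148047219 (minus strand) and chr5:147269847-147270096 (plus strand):
Hnf4a, upstream start: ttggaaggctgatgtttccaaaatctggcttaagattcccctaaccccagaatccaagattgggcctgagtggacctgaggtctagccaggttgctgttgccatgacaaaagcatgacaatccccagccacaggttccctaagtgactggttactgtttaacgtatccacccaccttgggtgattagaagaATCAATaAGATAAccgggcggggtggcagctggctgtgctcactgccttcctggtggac
Hnf4a, downstream start: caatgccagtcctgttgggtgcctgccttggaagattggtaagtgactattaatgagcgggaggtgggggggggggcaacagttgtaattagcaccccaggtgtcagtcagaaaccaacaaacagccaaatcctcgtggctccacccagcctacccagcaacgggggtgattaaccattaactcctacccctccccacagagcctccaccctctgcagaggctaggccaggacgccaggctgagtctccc
Foxa2: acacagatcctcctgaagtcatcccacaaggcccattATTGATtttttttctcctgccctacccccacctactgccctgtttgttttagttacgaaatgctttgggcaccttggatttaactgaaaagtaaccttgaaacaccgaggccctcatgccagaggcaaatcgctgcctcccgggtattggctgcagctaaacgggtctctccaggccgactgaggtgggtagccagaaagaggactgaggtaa
Pdx1: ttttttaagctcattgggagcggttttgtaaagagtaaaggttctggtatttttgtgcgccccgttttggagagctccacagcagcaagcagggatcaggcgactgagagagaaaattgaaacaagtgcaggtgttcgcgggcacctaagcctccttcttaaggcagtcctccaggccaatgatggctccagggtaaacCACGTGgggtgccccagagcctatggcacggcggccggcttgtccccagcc
The window of the upstream Hnf4a start held 1 GATA and 1 ONECUT match side by side, that of Foxa2 held 1 ONECUT match and that of Pdx1 held 1 E-box. The downstream Hnf4a window held none of the 5. Of the windows not printed, 1 of the other Foxa2 windows held 1 GATA match and 1 held none, and that of Foxa1 held 1 FOXA match. Over all 32851 windows of this length, 9.99% held the GATA letters, 6.72% ONECUT, 6.02% the E-box, 3.17% FOXA and 0.384% HNF4, so a match is a description of these letters only.

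Before the members are compared, the libraries were checked. Total counts ran from 18128055 to 32311721 per library, and no pair of replicates agreed within sampling noise. Nothing says that replicates came from separate cultures, so p-values measure the spread between these libraries, which may be technical. The library of sgCtrL with IFNγ replicate 1 stood apart from its group: its 268 genes of at least 10000 bases had a median log2 difference of -0.30 from the other replicates, against -0.14 to 0.17 in the other 11 libraries of that experiment. For the 8 factors, the value without it is given where that changed a call or a sign or moved a difference by over 1.5 times. Of the ductal markers, Spp1, Krt8, Krt18 and Krt19 were each at 974 TPM (counts per gene length, scaled to the same sum in every library) or more in every group mean, while the ductal channel gene Cftr was at or near 0. The 7 endocrine hormone and granule genes summed to at most 0.535 TPM, the 6 endothelial genes to at most 0.559 TPM, and the pan-leukocyte gene Ptprc did not exceed 0.0178 TPM in any group mean. The 8 leukocyte genes summed to 9.57 to 14.6 TPM, led by Cd68 in every group.

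Compared per gene length, Sox9 and Pdx1 were among the most abundant of the 8 factors and Gata4 and Foxa1 the least. In untreated sgCtrL cells the order was Pdx1 (80.5 TPM ± 2.25, SD, n = 2), Sox9 (65.8 ± 0.877), Hnf4a (60.0 ± 1.18), Foxa2 (51.4 ± 2.84), Onecut2 (33.3 ± 0.944), Gata6 (12.5 ± 0.671), Foxa1 (3.24 ± 0.408) and Gata4 (3.18 ± 0.354). All neighbours in that order were apart in both libraries except Foxa1 and Gata4, whose ranges overlapped. In sgCtrL cells of the IFNγ experiment kept without IFNγ, Sox9 led at 98.7 TPM ± 2.52 (SD, n = 3) and Hnf4a stood at rank 5 with 25.2 TPM ± 0.736, after Pdx1 at 58.4, Onecut2 at 33.4 and Foxa2 at 32.4 TPM. There the ranges of Onecut2 and Foxa2 overlapped, as did those of Foxa1 and Gata4. The tables of the 2 experiments were normalized separately, so these orders are set side by side without a test. In untreated Sin3Bsg1 cells Hnf4a headed the order at 109 TPM ± 0.112 (SD, n = 2), above Sox9 at 76.6 TPM.

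**Figure D1:**
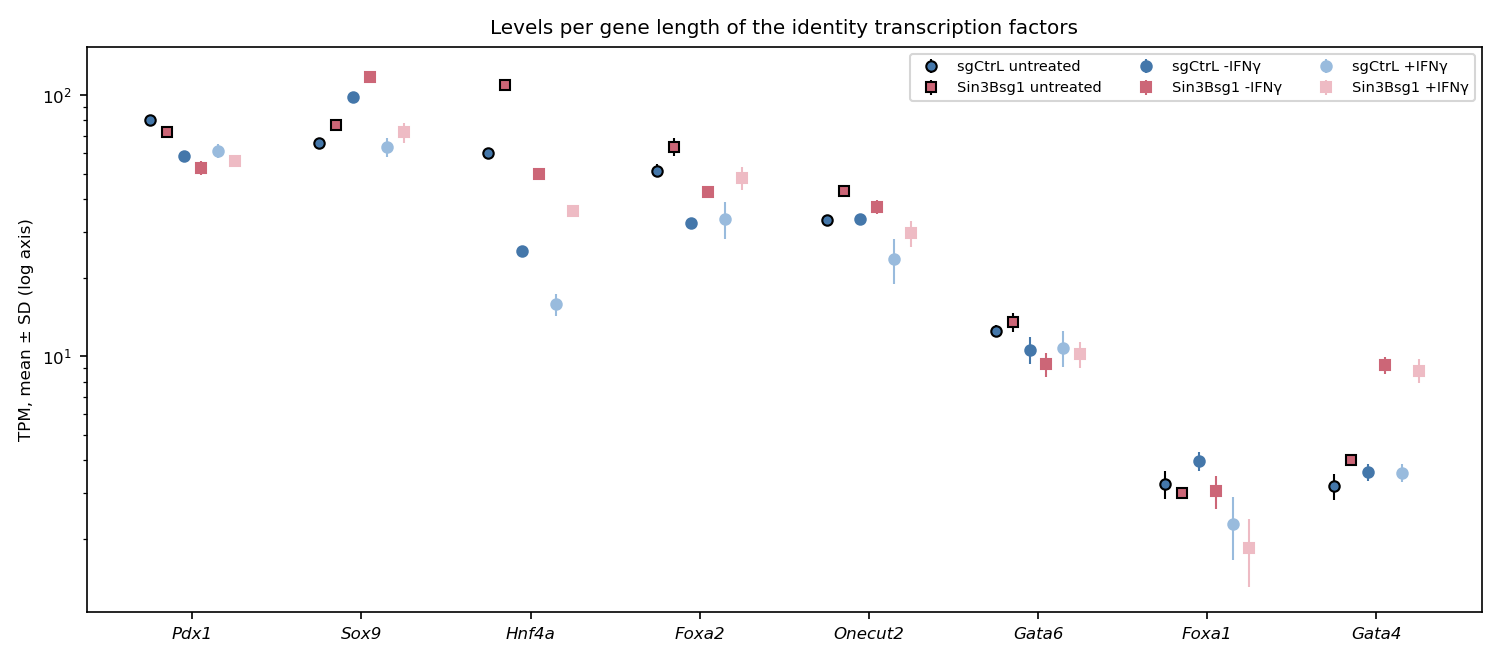
Mean TPM with SD (log axis) of the 8 factors in each of the 6 groups (n = 2 untreated, n = 3 in the IFNγ experiment), circles for sgCtrL and squares for Sin3Bsg1. Hnf4a moved from 60.0 to 109 TPM between the untreated groups, while Foxa1 reached at most 4.34 TPM in any library.

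In the comparison by guide, 4 of the 8 factors were higher and 1 was lower in untreated Sin3Bsg1 cells, where 15.1% of 14589 genes tested were higher and 16% lower. Without IFNγ 4 were higher and 0 lower, against 7.89% and 9.33% of 14913 genes, and with IFNγ 5 were higher and 0 lower, against 8.62% and 7.90%. The median log2 change over the 8 was 0.26, 0.18 and 0.26 in these comparisons, and that over all genes tested was 0.0024, -0.0090 and 0.0036. All 8 passed the filter on low counts. In either direction 31.1%, 17.2% and 16.5% of genes passed. The guides did not overlap for 6, 7 and 4 of the 8 factors, against 63.3%, 39.2% and 30.4% of genes tested. Hnf4a, Foxa2 and Sox9 passed the test in all 3 comparisons.

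Hnf4a (chr2:163348728-163414830, GRCm39), a nuclear receptor of liver and gut epithelium, had the clearest separation. Untreated Sin3Bsg1 libraries held 232 and 231 CPM and untreated sgCtrL libraries 129 and 126 CPM. Without IFNγ the values were 98.9, 98.2 and 95.3 CPM with Sin3Bsg1 and 51.3, 49.5 and 49.5 CPM with sgCtrL. With IFNγ they were 76.4, 75.3 and 74.0 CPM with Sin3Bsg1 and 36.2, 33.3 and 29.9 CPM with sgCtrL. In no condition did the guides overlap. The fold was 1.82 untreated (log2 change 0.86 ± 0.028, SE; adjusted p = 1.57e-12, edgeR's quasi-likelihood test), 1.94 without IFNγ (0.96 ± 0.057; adjusted p = 1.36e-08) and 2.27 with IFNγ (1.18 ± 0.059; adjusted p = 2.18e-09). The antisense gene Hnf4aos, which overlaps Hnf4a on the opposite strand, held at most 3 counts in any library, against at least 663 for Hnf4a. The strand setting of the counting is not given in the sources used here.

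Gata4 (chr14:63436362-63509141), a zinc-finger factor of early endoderm and stomach, passed the test by guide in the IFNγ experiment and not in the untreated one. Without IFNγ it stood at 14.6, 15.1 and 12.9 CPM in Sin3Bsg1 libraries and at 5.45, 5.30 and 6.04 CPM in sgCtrL libraries. With IFNγ it stood at 15.6, 13.4 and 14.1 CPM against 5.92, 5.44 and 6.22 CPM. The groups did not overlap in either condition, and the fold was 2.54 (log2 change 1.35 ± 0.10; adjusted p = 2.33e-07) and 2.46 (1.30 ± 0.10; adjusted p = 2.77e-07). In the untreated experiment the values were 6.82 and 6.48 CPM with Sin3Bsg1 and 4.84 and 5.68 CPM with sgCtrL, just apart, a log2 difference of 0.34 ± 0.15 that did not pass (95% interval 0.029 to 0.65; adjusted p = 0.0927). The difference of the 2 guide effects, tested in a joint fit of the 10 libraries without IFNγ, was 1.02 ± 0.17 on the log2 scale (95% interval 0.65 to 1.38; adjusted p = 4.02e-04). Of the 8 factors, 1 passed this test as higher and 1, Onecut2, as lower, against 6.80% and 6.80% of 15264 genes and 13.6% in all. Culture, library preparation and whatever else differed between the experiments cannot be told apart in these differences.

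Foxa2 (chr2:147884797-147889005), a pioneer factor of endoderm, was higher with Sin3Bsg1 by a smaller step. It held 67.8 and 60.4 CPM against 53.8 and 49.8 CPM untreated. Without IFNγ it held 40.2, 40.7 and 37.8 CPM against 29.3, 31.1 and 31.3 CPM, and with IFNγ 51.3, 47.2 and 45.2 CPM against 39.5, 29.7 and 31.3 CPM. The guides were apart in each condition, and the sgCtrL library at 39.5 CPM is replicate 1, the one that stood apart. The log2 changes were 0.31 ± 0.056 (adjusted p = 4.97e-04), 0.37 ± 0.088 (adjusted p = 0.00793) and 0.52 ± 0.086 (adjusted p = 5.15e-04). Without that library the last became 0.67. Its relative Foxa1 (chr12:57587414-57593702) did not pass in any comparison by guide, with log2 differences of -0.11 ± 0.16, -0.40 ± 0.20 and -0.30 ± 0.22. Untreated it held 4.73 and 4.57 CPM with Sin3Bsg1 and 5.48 and 4.59 CPM with sgCtrL, which overlapped. Without IFNγ the guides were apart, with 4.38, 3.74 and 4.99 CPM in Sin3Bsg1 libraries below 5.55, 5.47 and 6.31 CPM in sgCtrL libraries, and the difference did not pass (adjusted p = 0.210). With IFNγ they overlapped, at 3.59, 2.75 and 2.15 against 4.47, 3.40 and 2.61 CPM, and the difference of -0.30 became -0.081 without the library that stood apart. Foxa1 was also scarce, between 50 and 163 counts in a library.

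**Figure D2:**
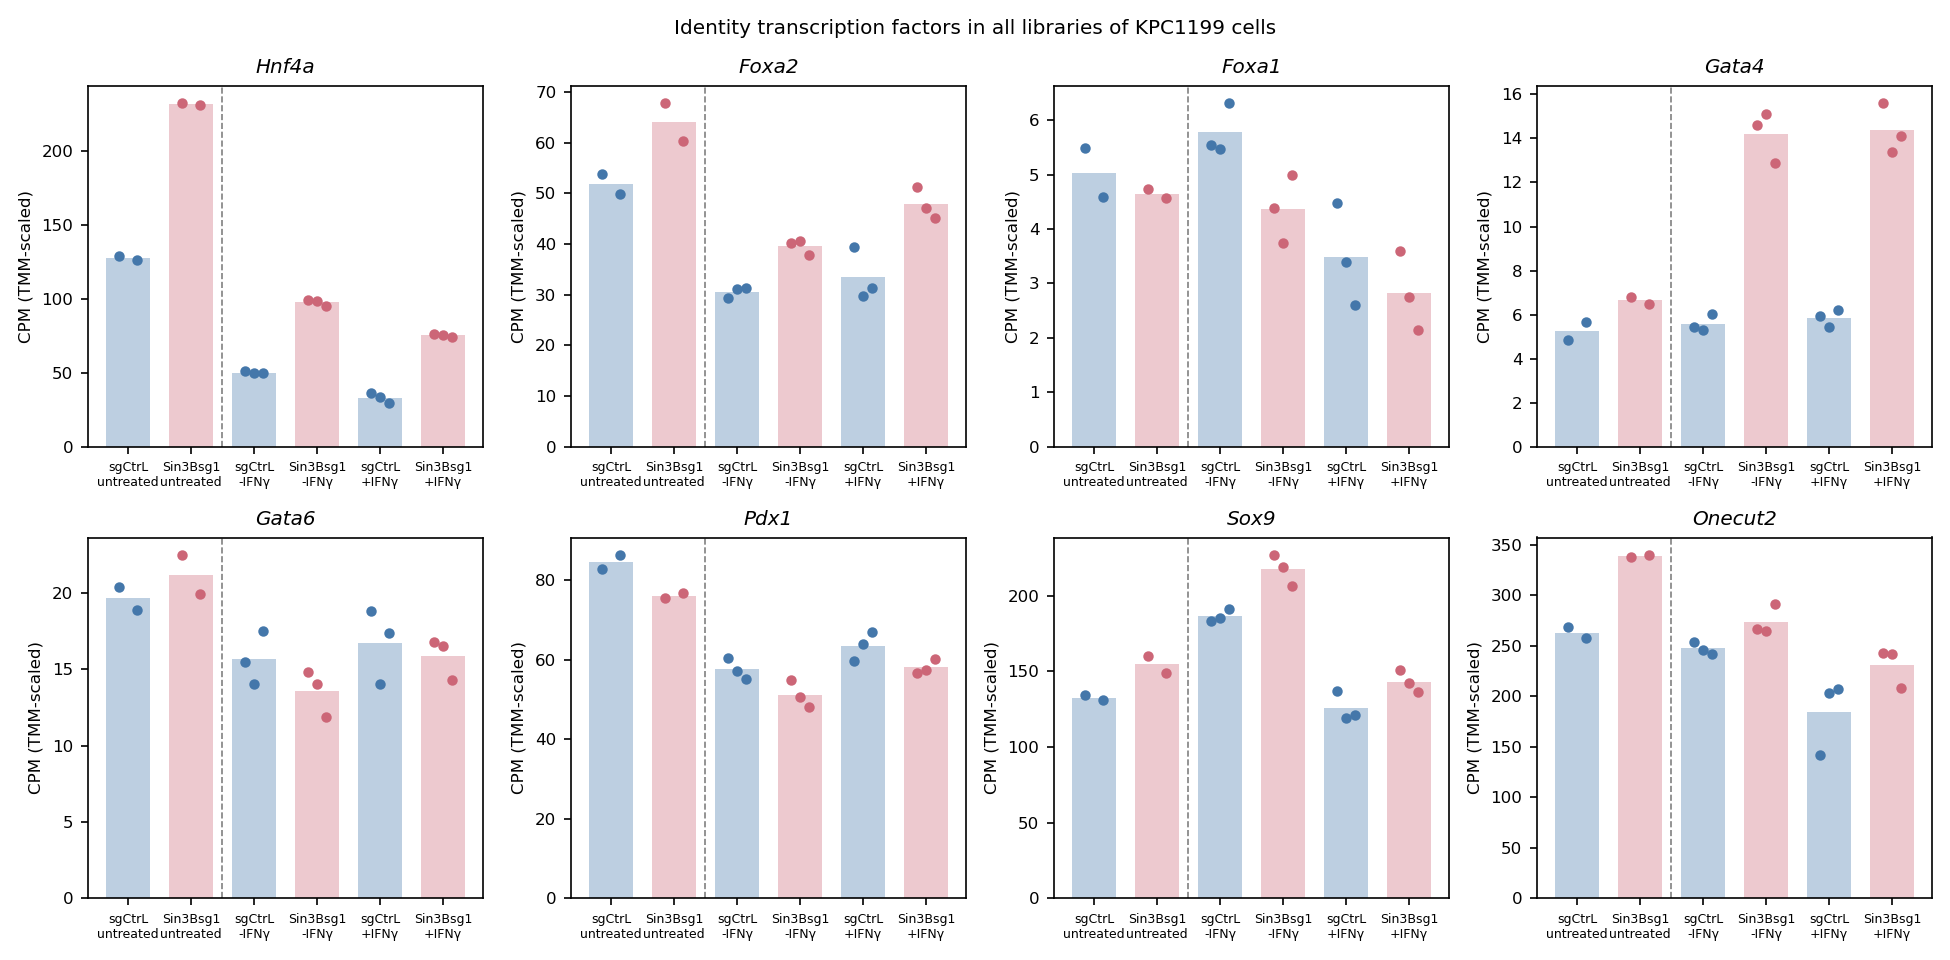
TMM-scaled CPM of each factor in all 16 libraries (points) with the group mean (bars from 0), sgCtrL in blue and Sin3Bsg1 in red, and a dashed line between the separately normalized experiments. Hnf4a is apart between guides in every condition, Gata4 stands at 12.9 CPM or more in Sin3Bsg1 libraries of the IFNγ experiment, and Onecut2 shows the low sgCtrL library with IFNγ at 142 CPM.

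Sox9 (chr11:112673009-112678586), which keeps ductal and progenitor identity, rose by about the same small step in each comparison. It stood at 160 and 149 CPM with Sin3Bsg1 and at 134 and 131 CPM with sgCtrL untreated. Without IFNγ it stood at 227, 219 and 206 CPM against 183, 185 and 191 CPM, and with IFNγ at 151, 142 and 136 CPM against 137, 119 and 121 CPM. The guides were apart without IFNγ in both experiments and overlapped with IFNγ. The log2 changes were 0.22 ± 0.036 (adjusted p = 1.55e-04), 0.22 ± 0.059 (adjusted p = 0.0147) and 0.19 ± 0.059 (adjusted p = 0.0435). The calls in the IFNγ experiment were weak: over the alternatives run, the adjusted p of Sox9 reached 0.0813 without IFNγ and 0.166 with IFNγ.

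Onecut2 (chr18:64473091-64534058), a homeodomain factor of endocrine and ductal precursors, was higher in untreated Sin3Bsg1 cells, at 338 and 340 CPM against 268 and 258 CPM (log2 change 0.36 ± 0.025; adjusted p = 9.65e-09). Without IFNγ it held 266, 264 and 291 CPM against 254, 246 and 242 CPM, which did not overlap and did not pass (0.15 ± 0.11; adjusted p = 0.407). Fitted on only the 6 libraries of that comparison, the same 0.15 passed (adjusted p = 0.00451). With IFNγ it held 243, 242 and 208 CPM against 142, 203 and 207 CPM, and the lowest of these is the library that stood apart in long genes. The deposited length of Onecut2 is 16234 bases, and the part of gene length in its low value there was not tested. The log2 change with IFNγ was 0.33 ± 0.11 (adjusted p = 0.0495), 0.18 without that library (adjusted p = 0.0414) and 0.24 with offsets smoothed on gene length (adjusted p = 0.00160). The call was lost in 7 of 13 alternatives, among them DESeq2 (adjusted p = 0.0807) and a fit of only the 6 libraries of the comparison (adjusted p = 0.169). The libraries without IFNγ were also compared between the experiments in the joint fit. There the effect of the guide was smaller in the IFNγ experiment than in the untreated one, by 0.21 on the log2 scale (difference -0.21 ± 0.055; adjusted p = 0.0126). The effect with IFNγ was not part of that test.

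Pdx1 and Gata6 did not rise. Pdx1 (chr5:147206769-147212658), the master factor of the pancreatic bud and of beta cells, was at 75.4 and 76.7 CPM with Sin3Bsg1 and at 82.9 and 86.4 CPM with sgCtrL untreated, a fall of 10.2% that passed (log2 change -0.15 ± 0.039; adjusted p = 0.00581). Its log2 difference was close to that in the IFNγ experiment, -0.17 ± 0.061 without and -0.13 ± 0.060 with IFNγ, where it did not pass (adjusted p = 0.0759 and 0.166). Without IFNγ it passed in 2 of 13 alternatives. Without IFNγ it held 55.0, 50.5 and 48.2 CPM against 60.3, 57.2 and 55.2 CPM, just apart, and with IFNγ 56.7, 57.5 and 60.1 CPM against 59.7, 63.9 and 67.0 CPM, which overlapped. The untreated call was lost without sgCtrL replicate 2 (log2 change -0.12; adjusted p = 0.0746). Gata6 (chr18:11051565-11086995), a marker of classical PDAC, ran from 11.9 to 22.5 CPM with Sin3Bsg1 and from 14 to 20.4 CPM with sgCtrL over all libraries, and the guides overlapped in each condition. Its log2 differences of 0.11 (95% interval -0.067 to 0.29), -0.20 (-0.45 to 0.060) and -0.071 (-0.32 to 0.18) did not pass, and the last became 0.033 without the library that stood apart. Its antisense gene Gata6os held at most 14 counts in a library, against at least 277 for Gata6.

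With IFNγ, more of the 8 factors passed as lower than as higher. By sign alone, Hnf4a, Foxa1, Sox9 and Onecut2 were lower and Pdx1, Gata6, Gata4 and Foxa2 higher in both lines. In sgCtrL cells 0 of the 8 factors were higher and 4 lower with IFNγ, where 15.7% of genes tested were higher and 14.5% lower, and in Sin3Bsg1 cells 2 were higher and 3 lower, against 16.1% and 12.3%. The median log2 change over the 8 was -0.18 in sgCtrL and -0.11 in Sin3Bsg1 cells, and that over all genes was -0.00062 and 0.0052. In either direction 30.2% and 28.4% of genes passed, and libraries with and without IFNγ did not overlap for 4 and 6 of the 8 factors, against 41.5% and 45.4% of genes. The comparisons by IFNγ and by guide use the same 12 libraries.

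Hnf4a and Sox9 fell in both lines. For Hnf4a the 3 sgCtrL libraries went from 49.5 to 51.3 CPM down to 29.9 to 36.2 CPM, and the Sin3Bsg1 libraries from 95.3 to 98.9 CPM down to 74.0 to 76.4 CPM. Neither pair of ranges overlapped, and the Sin3Bsg1 cells with IFNγ still held more Hnf4a than the sgCtrL cells without it. The log2 change was -0.60 ± 0.061 in sgCtrL cells (adjusted p = 1.40e-06) and -0.37 ± 0.056 in Sin3Bsg1 cells (adjusted p = 8.81e-05). Sox9 changed by -0.57 ± 0.059 (adjusted p = 2.08e-06) and -0.60 ± 0.059 (adjusted p = 8.79e-07).

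Foxa1 had the largest estimated fall of the 8 on the log2 scale, but its SE is too wide to rank it above Sox9. Its values went from 5.55, 5.47 and 6.31 to 4.47, 3.40 and 2.61 CPM in sgCtrL cells. In Sin3Bsg1 cells they went from 4.38, 3.74 and 4.99 to 3.59, 2.75 and 2.15 CPM. The ranges with and without IFNγ did not overlap in either line. The log2 changes were -0.73 ± 0.21 (adjusted p = 0.0154) and -0.63 ± 0.21 (adjusted p = 0.0390), and leaving out 1 library raised the adjusted p to at most 0.0669 and 0.142. Onecut2 fell by 0.42 on the log2 scale in sgCtrL cells (SE 0.11; adjusted p = 0.00690), and by 0.28 without the library that stood apart (adjusted p = 0.00166). In Sin3Bsg1 cells its log2 difference was -0.24 ± 0.11 and did not pass (adjusted p = 0.101).

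Foxa2, Pdx1, Gata4 and Gata6 did not pass as lower in either line. Foxa2 was higher with IFNγ in Sin3Bsg1 cells (log2 change 0.27 ± 0.085; adjusted p = 0.0239), a call lost in 4 of 13 alternatives, and differed by 0.12 ± 0.090 in sgCtrL cells, where it went to -0.018 without the library that stood apart. Pdx1 was higher in Sin3Bsg1 cells (0.18 ± 0.061; adjusted p = 0.0360), with a value of 0.14 ± 0.061 in sgCtrL cells that did not pass (adjusted p = 0.0899). Without the library that stood apart, the sgCtrL value was 0.18 and passed (adjusted p = 0.0334). The call in Sin3Bsg1 cells was lost in 11 of 13 alternatives. Gata4 differed by 0.066 (95% interval -0.18 to 0.31) and 0.019 (-0.18 to 0.22), and Gata6 by 0.096 (-0.16 to 0.35) and 0.22 (-0.030 to 0.48). Without that library, Gata6 differed by -0.0032 in sgCtrL cells.

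Whether IFNγ acted differently in the lines was tested as an interaction. By edgeR 0 of the 8 factors passed, where 0.114% of genes tested did (0.0805% higher and 0.0335% lower), 1 factor had an unadjusted p under 0.05, and DESeq2 called 0. That factor was Hnf4a, whose fall under IFNγ was smaller with Sin3Bsg1 by 0.22 ± 0.082 on the log2 scale (95% interval 0.050 to 0.40; edgeR unadjusted p = 0.0152, adjusted p = 0.792). For the other 7 the intervals of the interaction all included 0 and reached from -0.54 to 0.74, the widest being that of Foxa1. Without the library that stood apart, 0 of the 8 passed, and the interaction was 0.29 for Hnf4a (adjusted p = 0.140), 0.31 for Foxa1, 0.28 for Foxa2, 0.22 for Gata6, 0.031 for Sox9, 0.026 for Onecut2 in place of 0.18, -0.0031 for Pdx1 and -0.036 for Gata4.

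**Figure D3:**
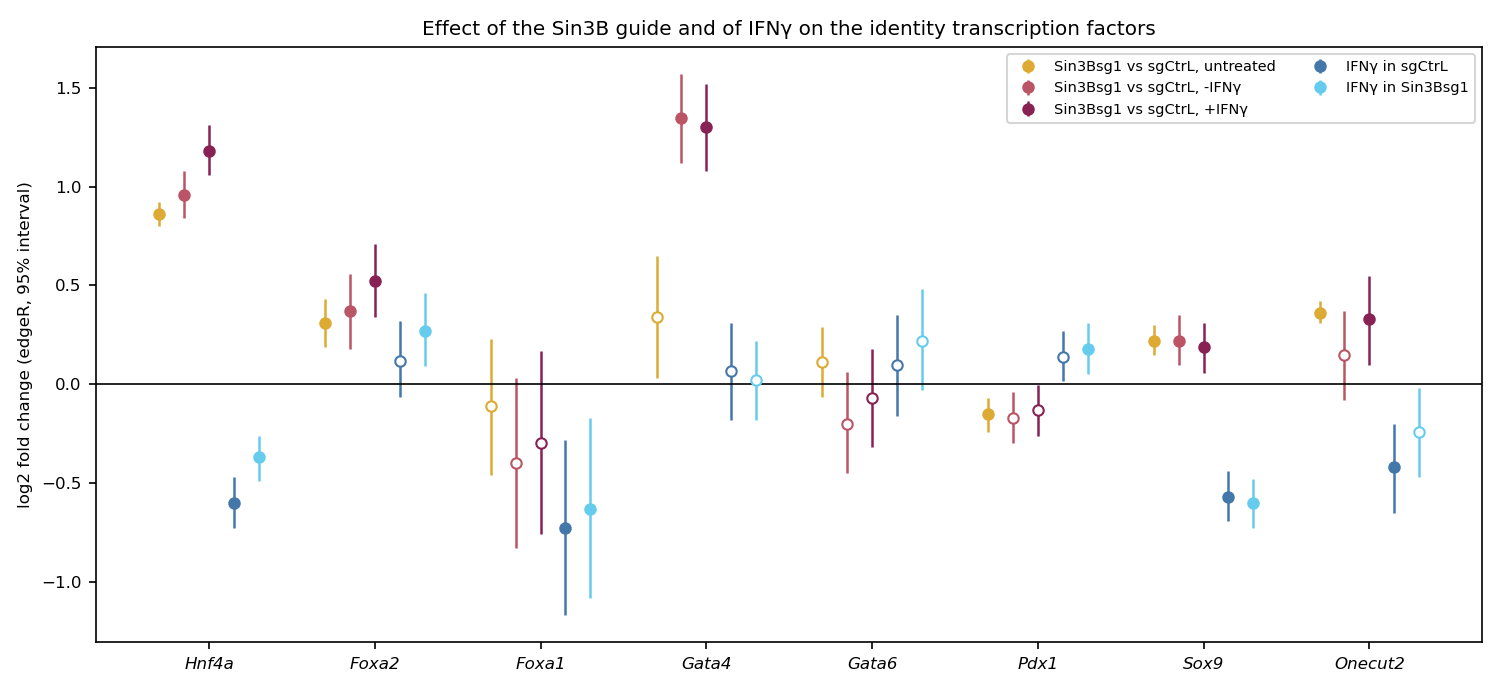
Log2 fold change (edgeR) with its 95% interval for each factor in the 3 comparisons by guide and the 2 by IFNγ, filled where the adjusted p is under 0.05. Hnf4a lies above 0 by guide (0.86 to 1.18) and below 0 by IFNγ (-0.60 and -0.37), Sox9 the same with smaller steps by guide, and Pdx1 lies on the opposite sides (-0.17 to -0.13 and 0.14 to 0.18).

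Other transcription factors of foregut and intestine were taken from a list of 24, of which 16 passed the filter on low counts. Of these, 14 were higher and 1 lower in untreated Sin3Bsg1 cells, 11 and 2 without IFNγ, and 8 and 1 with IFNγ, with median log2 changes of 0.68, 0.54 and 0.28. Among those higher in all 3 were Ehf, Elf3, Gata5, Hhex, Hnf4g and Klf5. Over all genes tested, 15.1%, 7.89% and 8.62% were higher and 16%, 9.33% and 7.90% lower in these comparisons. This list and those below were chosen with earlier results of these data known, so their counts are not independent support. Gata5, a relative of Gata4 in endoderm, went from 9.51 to 37.9 TPM untreated (log2 change 1.99 ± 0.063; adjusted p = 1.10e-12), by 1.15 without IFNγ and by 1.32 with IFNγ. Elf3, an epithelial ETS factor, rose by 0.99, 0.55 and 0.47 on the log2 scale. The Hnf4a paralog Hnf4g rose by 1.06, 0.97 and 0.52 from a low level of at most 2.38 TPM in sgCtrL group means, and Klf5, a factor of proliferating gut epithelium, by 0.34, 0.74 and 0.59.

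Cdx2, the master factor of intestine, was the 1 gene of the list that was lower in all 3, with changes of -0.35 ± 0.027 (adjusted p = 6.50e-08), -0.21 ± 0.059 (adjusted p = 0.0197) and -0.28 ± 0.059 (adjusted p = 0.00336) on the log2 scale. It was abundant, from 128 to 227 TPM in the group means, as was the intestinal homeodomain factor Isx at 76.1 to 277 TPM. Sox2, Cdx1, Spdef and Barx1 stayed at or near 0. Acinar and endocrine factors were mostly absent: 13 of 15 on that list did not pass the filter untreated, and Ptf1a and Neurog3 had no counts in any group. Under IFNγ the foregut list went 5 higher and 5 lower in sgCtrL cells, against 15.7% and 14.5% of all genes tested. In Sin3Bsg1 cells it went 2 higher and 8 lower, against 16.1% and 12.3%. A difference between the lines was tested only by the interaction, which 1 of its 16 tested factors passed. Ehf, an epithelial ETS factor, passed the interaction (log2 -0.39 ± 0.062; adjusted p = 0.0308): it rose by 0.33 with IFNγ in sgCtrL cells and differed by -0.057 in Sin3Bsg1 cells. Calls of the interaction were unstable, as 1 to 33 genes in place of 17 passed with 1 library left out.

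Of the genes that mark the classical state of PDAC, more rose than fell by guide. Of 23 on the list, 12 were tested untreated and 13 in the IFNγ experiment, with 10, 9 and 7 higher and 0 lower in the 3 comparisons by guide and medians of 0.97, 0.66 and 0.65. The shares over all genes tested were 15.1%, 7.89% and 8.62% higher and 16%, 9.33% and 7.90% lower. Lgals4, an intestinal lectin, went from 517 to 1028 TPM untreated (log2 change 0.99 ± 0.021; adjusted p = 1.13e-14), and by 0.99 and 1.14 in the IFNγ experiment. Krt20, a keratin of gut epithelium, rose by 1.62, 1.0 and 1.24, and Cdh17, an intestinal cadherin, by 0.41, 0.66 and 0.65. Tff2, a gastric trefoil peptide, held 15 to 28 counts in Sin3Bsg1 libraries without IFNγ and 0 or 1 in sgCtrL libraries, so no fold is given. The lowest log2 changes in the list were 0.36 untreated, -0.63 without IFNγ and -0.24 with IFNγ, and those below 0 did not pass. For Agr2 the guide effect without IFNγ was lower in the IFNγ experiment than untreated, by 2.12 on the log2 scale. Among the markers not tested, Agr3 had no counts in any group.

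Markers of the basal-like state also rose in part, while its transcription factors did not. Of the 10 basal markers tested, 5 were higher and 1 lower untreated, 4 and 1 without IFNγ, and 4 and 1 with IFNγ. Their median log2 changes were 0.36, 0.24 and 0.66, against 0.97, 0.66 and 0.65 for the classical markers. The basal markers higher in all 3 were Anxa8, Krt7, Scel and Tns4, and Krt7 is a simple ductal keratin that the ductal list holds too. Of the basal and mesenchymal transcription factors, 0 were higher and 9 of 11 lower untreated, and 0 were higher and 3 of 12 lower in each comparison of the IFNγ experiment. For both lists, the shares over all genes tested were 15.1%, 7.89% and 8.62% higher and 16%, 9.33% and 7.90% lower. Twist1 and Zeb2, repressors of epithelial genes, were lower in all 3, with log2 changes of -0.71, -0.43 and -0.50 for Twist1 and -0.26, -0.21 and -0.21 for Zeb2. Snai1, another such repressor, fell by 1.97 on the log2 scale untreated and differed by -0.014 and 0.039 in the IFNγ experiment. Cdh1, the epithelial cadherin, rose by 1.08, 0.92 and 1.0.

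Markers of other cell types also moved with the guide. The 8 fibroblast markers summed to 10.0 to 11 TPM in untreated Sin3Bsg1 libraries and 31.5 to 31.9 TPM in sgCtrL libraries, to 74.9 to 79.5 against 85.3 to 89.3 TPM without IFNγ, and to 49.2 to 55.2 against 57.1 to 58.5 TPM with IFNγ. Nearly all of this was Pdgfra and Pdgfrb, while Postn, Lum and Dcn were at or near 0. Pdgfra fell by 1.78 untreated, by 0.26 without IFNγ and by 0.21 with IFNγ on the log2 scale, while Pdgfrb fell by 1.14 untreated and was higher by 0.19 and 0.27 in the latter 2 comparisons. The 9 acinar enzyme genes summed to 11.6 to 13.9 TPM against 20.9 to 22.7 TPM untreated, carried by Cela1 and Prss2, with Cpa1 at 0. The part of other cells in the results above was not tested. In bulk RNA, fewer cells of a type and less RNA per cell cannot be told apart.

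**Figure D4:**
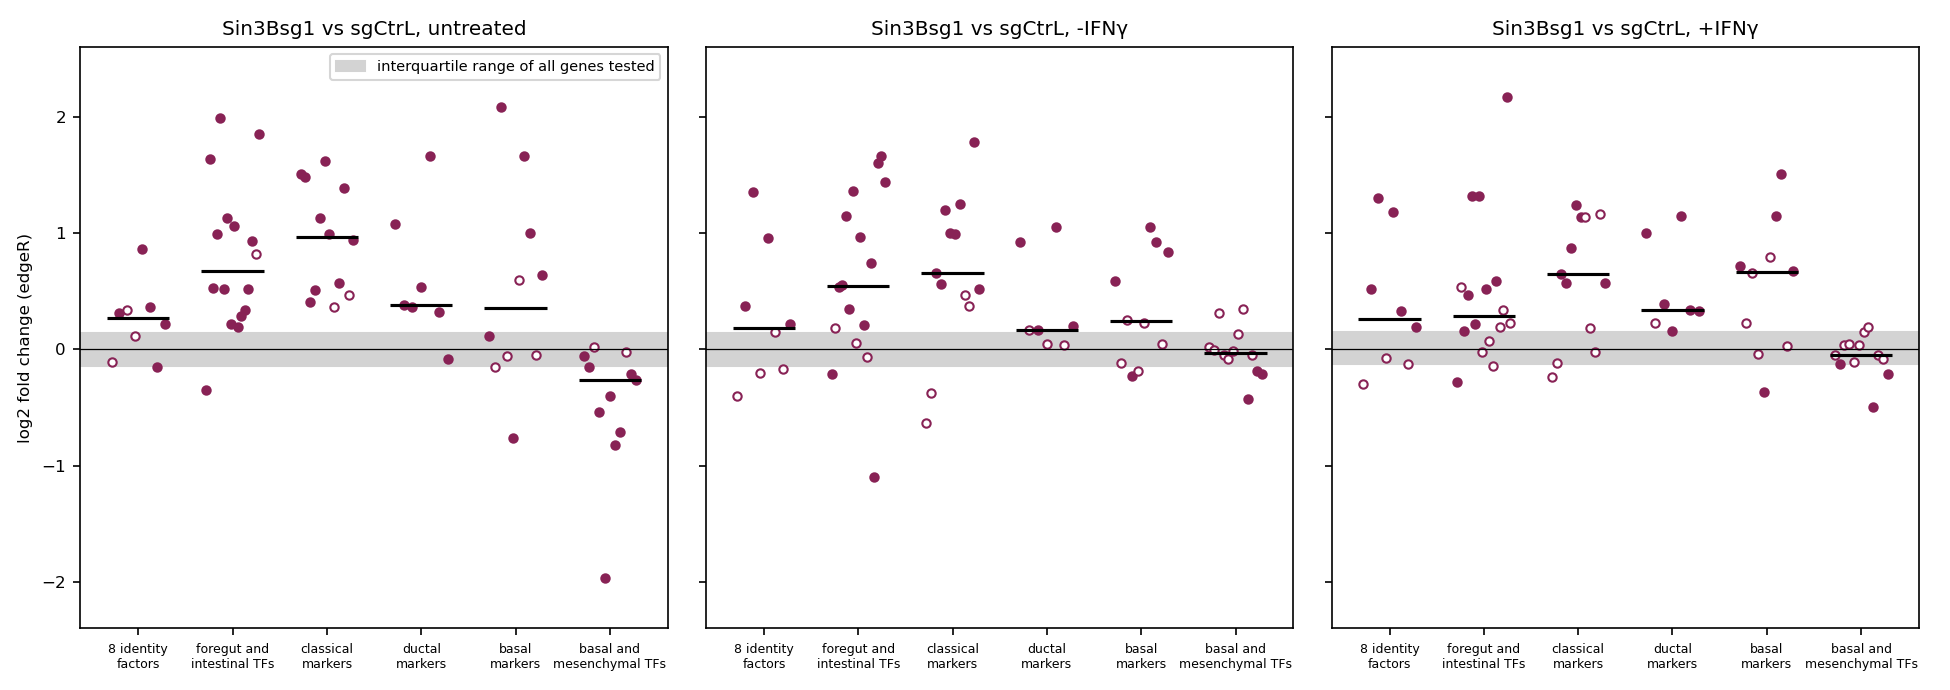
Log2 fold changes by guide (edgeR) of the 8 factors and 5 gene lists in each condition, a point per gene tested, filled where the adjusted p is under 0.05, with the list median as a line and the interquartile range of all genes tested in grey (Tff2 is counted in its list's median and not drawn). The medians of the foregut factors (0.68, 0.54 and 0.28) and the classical markers (0.97, 0.66 and 0.65) lie above the grey band. So do those of the ductal markers (0.38, 0.17 and 0.34), the basal markers (0.36, 0.24 and 0.66) and the 8 factors (0.26, 0.18 and 0.26). That of the basal and mesenchymal factors lies at -0.26, -0.033 and -0.046.

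Genes whose pattern over the 16 libraries was most like that of a factor were named by the smallest root mean square difference of log2 CPM, centred within each experiment, among 10105 genes. These genes share all their libraries with the factor, so likeness is a description. For Hnf4a they were Tmprss2 (0.078), a membrane serine protease of gut and prostate epithelium, Lgals4 (0.084) and Spint2 (0.10), an inhibitor of such proteases. All 3 were higher by guide in every condition, by 0.74 to 1.17 on the log2 scale, and lower with IFNγ in both lines, with log2 changes of -0.59 to -0.40. For Gata4 the nearest were Hook1 (0.16), Nol4l (0.17) and Rasa4 (0.17). Without IFNγ, the guide effect of each was larger in the IFNγ experiment than untreated, by 0.63, 0.52 and 0.63 on the log2 scale. Gata4 showed such a difference in the libraries used to pick these genes, so their differences are no separate evidence.

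Onecut2 was nearest to Ino80d (0.073), Fat1 (0.075) and Vps13d (0.083), of which Fat1 encodes a giant cadherin and Vps13d a giant lipid-transfer protein. Sox9 was nearest to Bcam (0.075), Slc25a23 (0.076) and Ceacam1 (0.078), which were lower with IFNγ in both lines as Sox9 was. Foxa2 was nearest to Myo1d (0.068), Tinagl1 (0.075) and Fkbp5 (0.089), all higher by guide and with IFNγ. Foxa1 was nearest to Cxxc4 (0.18), Lgr6 (0.19) and Slc20a2 (0.20), and these distances were large beside its own SD of 0.39. The nearest genes of Pdx1 (Eif4enif1 and Psmc2 among them) and Gata6 (Mrps27, Xxylt1 and Uvrag) varied as little as those factors, whose own SD was 0.12 and 0.16. Their distances were also large beside these SDs, at 0.056 and 0.057 for Eif4enif1 and Psmc2 and 0.094 to 0.10 for the genes of Gata6.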

How the data were processed

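The authors deposited 2 tables of estimated counts per gene, 1 for the untreated experiment (4 libraries) and 1 for the IFNγ experiment (12 libraries), which are not whole numbers and were rounded here. The submitters' processing notes list fastp, HISAT2, StringTie, DESeq2 and build mm39, while the study's methods name another mouse build and read counting on uniquely mapped reads. Annotation and strand setting are not given in the sources used here. Control columns carry a lacZ guide name and were taken as sgCtrL. Assembled loci without a gene (324, untreated table) and the authors' mean columns were not used.

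Counts were tested with edgeR 4.0.16 (R 4.3.3; TMM factors, filterByExpr, glmQLFit and glmQLFTest, two-sided, Benjamini-Hochberg over all genes tested, threshold 0.05). The untreated libraries were fitted alone, the 12 libraries of the IFNγ experiment together, and the difference between experiments in the 10 libraries without IFNγ. Intervals are 95% from the fitted SE. TPM was computed from counts and deposited gene lengths. Depth was 29683181 to 32311721 counts per library untreated and 18128055 to 27056903 in the IFNγ experiment. Fits were tested on simulated data. Alternatives were DESeq2 1.42.0, RLE factors, other count filters, a replicate block, the 6 libraries of a contrast alone, each library left out, and offsets smoothed on gene length, the last chosen after seeing the data. Named were the 8 factors, Sin3b, Sin3a, antisense genes, the 3 nearest genes of each factor, and up to 6 genes per list and comparison with the largest change. Other genes named, among them Elf3, Isx and absent markers, were chosen after their values were seen. The members and lists were chosen with earlier results of these data known. Some genes that these rules name are not reported here.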

Additional observations from a re-analysis of the deposited data

Results flagged for a closer look

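The effect of the guide differed between the 2 experiments, by a test of the difference itself in the 10 libraries without IFNγ, for 2 of the 8 factors, where 13.6% of 15264 genes passed. The difference (IFNγ experiment minus untreated experiment, log2) was 1.02 for Gata4 (edgeR adjusted p = 4.02e-04) and -0.21 for Onecut2 (adjusted p = 0.0126).

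Of the other foregut and intestinal factors, the same test gave -1.60 for Nr1h4, -1.45 for Creb3l1, -0.83 for Gata5, -0.43 for Elf3, -0.36 for Klf4, 0.40 for Klf5 and 0.14 for Cdx2. Gata5 and Gata4, both GATA factors of endoderm, thus differed with opposite signs. Of the classical markers it gave -2.12 for Agr2, -0.61 for Krt20, -0.40 for Tspan8 and 0.26 for Cdh17. Of the basal markers it gave -1.81 for Cst6, -0.60 for Krt7, -0.17 for Ctsl, 0.58 for Dhrs9, 0.49 for Anxa8 and 0.21 for Tns4, and of the basal and mesenchymal factors 1.96 for Snai1, 0.54 for Snai2, 0.46 for Runx3 and 0.16 for Hmga2. Of the ductal markers it gave -0.48 for Krt19, -0.27 for Krt8, -0.18 for Krt18, -0.16 for Cdh1 and 0.30 for Spp1. Of the fibroblast markers it gave 1.53 for Pdgfra and 1.34 for Pdgfrb.

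For Ehf the effect of IFNγ differed between the lines by -0.39 on the log2 scale (interaction, adjusted p = 0.0308). The number of genes past the interaction was unstable, from 1 to 33 with 1 library left out.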

How the results depend on the processing

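Hnf4a, Gata4 and Foxa2 kept their direction and side of the threshold by guide under every alternative run, in each of the 3 comparisons. Of 768 values of the 8 factors under alternatives, 692 kept direction and side of the threshold, 40 lost the call, 7 gained it and 29 changed sign, and of 2315 values of named list genes 196 lost the call and 0 changed sign. The causes were not tested.

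Factors called higher by guide with IFNγ numbered 3 in place of 5 with RLE factors and with only the 6 libraries of the contrast, where factors called lower without IFNγ numbered 1 in place of 0. With only those 6 libraries, 3996 genes in place of 2568 passed by guide without IFNγ and 1500 in place of 2464 with IFNγ. Factors higher with IFNγ in Sin3Bsg1 cells numbered 1 in place of 2 with DESeq2, RLE, no filter, at least 10 counts, the block or length offsets. Genes past the interaction numbered 17, 32 with DESeq2 and 110 without a filter, and 70.6% of the 17 were higher, against 64.3% with RLE factors, 59.4% with DESeq2, 59.1% with offsets smoothed on gene length, 61.5% with the replicate block, 55 of 110 without a filter on low counts and 7 of 14 with at least 10 counts in every library.

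Leaving out 1 library, factors called lower by guide ranged from 0 to 1 untreated and from 0 to 1 without IFNγ, and those higher with IFNγ from 3 to 5. Factors higher with IFNγ ranged from 0 to 1 in sgCtrL cells and from 0 to 1 in Sin3Bsg1 cells, genes past the interaction from 1 to 33 (the latter without sgCtrL with IFNγ replicate 1), and factors with a smaller guide effect in the IFNγ experiment from 0 to 1 (Onecut2 was lost without untreated sgCtrL replicate 2, at -0.19, adjusted p = 0.0663).

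Values near 0 changed sign. The IFNγ effect on Gata4 in Sin3Bsg1 cells was -0.0023 with DESeq2, -0.0022 with RLE and -0.0075 with at least 10 counts. The difference between experiments was 0.0011 without a filter and 0.0016 with at least 10 counts for Pdx1, and -0.0098 with length offsets for Sox9. Leaving out 1 library gave -0.24 to 0.017 for Foxa1 by guide untreated, -0.19 to 0.033 for Gata6 by guide with IFNγ, -0.0032 to 0.21 for Gata6 and -0.018 to 0.20 for Foxa2 by IFNγ in sgCtrL cells, and -0.070 to 0.063 for Gata4 by IFNγ in Sin3Bsg1 cells. The interaction ranged from -0.0074 to 0.093 for Pdx1, -0.010 to 0.22 for Gata6, -0.13 to 0.31 for Foxa1 and -0.10 to 0.031 for Sox9. The difference between experiments ranged from -0.059 to 0.037 for Pdx1, -0.015 to 0.15 for Foxa2 and -0.047 to 0.058 for Sox9.

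In the IFNγ experiment, same-numbered libraries correlated by -0.029 to 0.12 in their deviations from group means over 18 pairs. Differently numbered libraries correlated by -0.13 to 0.060 over 36 pairs. Values this low cannot decide whether the numbers pair the samples. With a replicate block 4675 genes in place of 4543 passed by guide untreated, 2511 in place of 2568 without IFNγ and 2389 in place of 2464 with IFNγ, and the calls of Onecut2 by guide with IFNγ (0.33, adjusted p = 0.0526) and of Pdx1 by IFNγ in Sin3Bsg1 cells (0.18, adjusted p = 0.0511) were lost. Depth limits Foxa1 most, at 50 to 163 counts per library.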
